A study of Mus musculus with 16 samples.

Results

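The 877 regions described here were chosen by a rule on the deposited peak lists of an assay for transposase-accessible chromatin (ATAC-seq), out of 80565 consensus regions. In each of the 16 libraries the 50000 distinct peak intervals with the highest −log10 p were kept, and the windows of 150 bp on either side of their summits were merged. A merged region held by at least 2 libraries was a consensus region, and it was called open in a library where a kept interval overlapped it. The 877 regions were open in both WT libraries on day 3 and in none of the 4 Tet1 KO and Tet1 MUT libraries on day 3. They made up 1.09% of the consensus regions and 1.97% of the 44516 regions open in both WT day 3 libraries. The reverse pattern, open in all 4 KO and MUT libraries and in neither WT library, was found at 432 regions, 0.536% of all. Both counts come from the values that chose the regions and carry no test. For 1 region, 2 libraries against 4 could reach no smaller exact permutation p than 0.0667.

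The libraries came from mouse embryonic stem cells that the labels give, for every group, as B6129S6F1 Tet1<tm1Koh>. They were depleted of feeders and differentiated toward anterior neural progenitors in defined medium with bFGF. Tet1 KO cells (lines KO1 and KO15) and Tet1 MUT cells (lines CM59 and CM69, clones with a catalytically dead Tet1 made by Cas9 homology-directed repair in the WT7 line) were profiled on day 2 and day 3, beside WT cells (lines WT70 and WT72). KO1 and KO15 were also profiled on day 3 with the Wnt inhibitor XAV939 (XAV), and the WT lines WT7 and WT34 on day 3 with the Wnt activator CHIR99021 (CHIR), both added from day 2. Each group held 2 libraries, 1 per line, so a difference between genotypes and a difference between lines cannot be told apart.

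TET1 is a dioxygenase that oxidises 5-methylcytosine, the first step of active DNA demethylation, and it also recruits chromatin regulators independently of that activity. KO cells lack the protein, whereas MUT cells keep a protein without catalytic activity. Transposase-accessible regions away from promoters are often enhancers, and in pluripotent and early neural cells such sites are commonly bound by OCT4 and SOX2 or by TEAD factors, which read Hippo signalling.

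To show what such regions look like, 200 bp around the WT summit are printed for 5 of them, all off annotated exons and taken from the first among the best-ranked members, among members in the authors' close-in-KO list and among members that met the same rule on day 2. All are the plus strand of RefSeq's GRCm38.p6 assembly, the coordinates of mm10. Capitals mark matches on either strand to the letters GGAATG (TEAD), ACAAAG (a short SOX core), CAGCTG (an E-box) or ATGCAAAT (the OCT octamer).
Intergenic, chr17:83972098-83972297: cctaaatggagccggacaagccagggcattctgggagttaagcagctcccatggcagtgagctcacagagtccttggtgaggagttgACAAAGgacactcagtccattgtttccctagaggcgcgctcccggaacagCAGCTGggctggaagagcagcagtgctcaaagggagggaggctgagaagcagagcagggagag
Intergenic, chr1:194109234-194109433: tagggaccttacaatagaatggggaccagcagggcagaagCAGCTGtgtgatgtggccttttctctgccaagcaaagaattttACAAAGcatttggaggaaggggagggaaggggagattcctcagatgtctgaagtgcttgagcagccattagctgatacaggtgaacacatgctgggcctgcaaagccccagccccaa
Intergenic near Epha4, chr1:77532291-77532490: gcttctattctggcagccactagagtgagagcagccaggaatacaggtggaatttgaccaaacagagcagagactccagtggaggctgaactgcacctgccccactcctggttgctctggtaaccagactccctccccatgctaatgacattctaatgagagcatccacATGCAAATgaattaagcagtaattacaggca
Intergenic near Card19, chr13:49224477-49224676: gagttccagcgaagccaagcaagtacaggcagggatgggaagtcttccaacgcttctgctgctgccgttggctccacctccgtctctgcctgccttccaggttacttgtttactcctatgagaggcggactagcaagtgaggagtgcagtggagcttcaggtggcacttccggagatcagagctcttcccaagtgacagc
Intron near Lypd6, chr2:50100474-50100673: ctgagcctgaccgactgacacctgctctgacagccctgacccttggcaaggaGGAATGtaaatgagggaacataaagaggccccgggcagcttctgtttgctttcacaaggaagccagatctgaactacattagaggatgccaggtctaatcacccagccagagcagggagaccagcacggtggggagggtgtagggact
The chr17 and chr1:194109234 windows each held 1 SOX core and 1 E-box, the Epha4 window held an octamer, and the Lypd6 window held a TEAD match. The Card19 window held none of the 4. The Epha4 and chr1:194109234 windows held no CpG, against 6 in the Card19 window.

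The name closed goes further than the peak lists do. Every one of the 877 regions had a deposited peak in at least 1 of the 4 KO and MUT day 3 libraries: 616 had one in all 4, 196 in 3, 56 in 2 and 9 in 1. The median fold enrichment at summits inside the regions, as the authors' peak caller gave it over the local background, was 4.26 and 3.28 in the KO libraries and 4.42 and 4.43 in the MUT libraries, against 6.89 and 5.70 in the WT libraries on day 3. Over all of the 44516 regions that were open in WT the same medians were 7.76 and 6.12 in KO, 7.69 and 7.49 in MUT, and 8.31 and 7.24 in WT. The 877 regions were therefore weaker peaks in WT cells to begin with, and weaker again in KO and MUT cells. Among the 597 with a summit in all 6 libraries, the median log2 difference of KO and MUT minus WT was −0.62, against −0.09 over all regions open in both WT libraries. These day 3 values are a description, since the same libraries chose the regions.

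**Figure D1:**
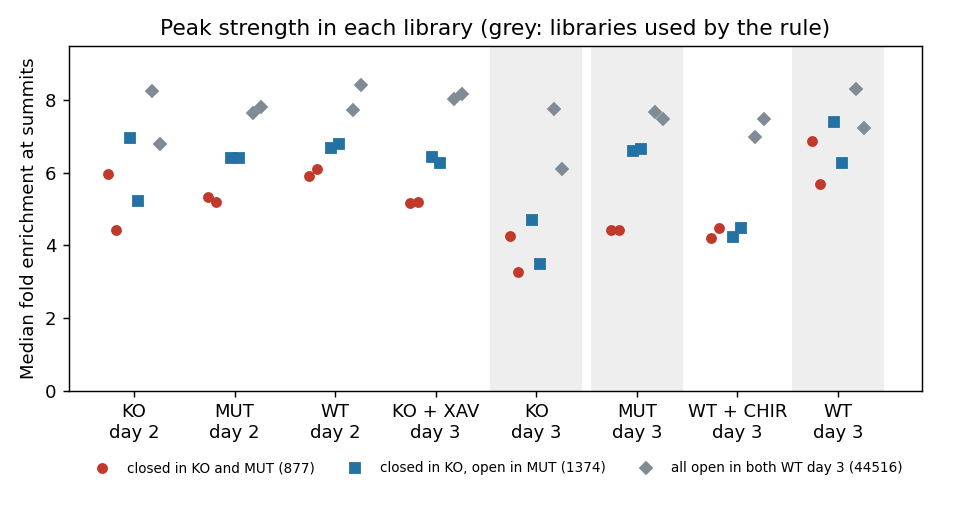
Median fold enrichment at summits inside the regions (y axis) in each library, 1 point per library, for the regions closed in KO and MUT (red), the regions closed in KO and open in MUT (blue) and all regions open in both WT day 3 libraries (grey). Grey bands mark the libraries the rule used. In MUT day 3 libraries the red points lie at 4.42 and 4.43, against 6.89 and 5.70 in WT day 3 libraries.

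Most of the regions lay close to the rank threshold on both sides. The worse of the 2 WT ranks was beyond 40000 at 702 regions (80.1%), against 18.8% of the 44516, and only 20 had a worse WT rank up to 30000, 3 up to 20000 and 1 up to 10000. The best KO or MUT rank fell between 50001 and 60000 at 586 regions (66.8%), with a median of 56614, and beyond 100000 at 12. It was at least 2 times the worse WT rank at 48 regions (5.47%). Just inside the threshold lay regions near Zfp518b (best KO or MUT rank 50008) and Tmem130 (50011), and just outside it lay regions near Zbp1 (49981) and Abcg8 (49997). With 45000 peaks kept per library, 750 regions met the rule and 413 of the 877 (47.1%) overlapped one of them. With 55000 kept, 948 met it and 516 of the 877 (58.8%) overlapped one. The number of regions was thus of the same order, but their identity changed with the threshold. Leaving out 1 day 3 library relaxes the rule by construction, and the count became 1615 without MUT replicate 2, 1912 without WT replicate 1 and 2439 without WT replicate 2.

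**Figure D2:**
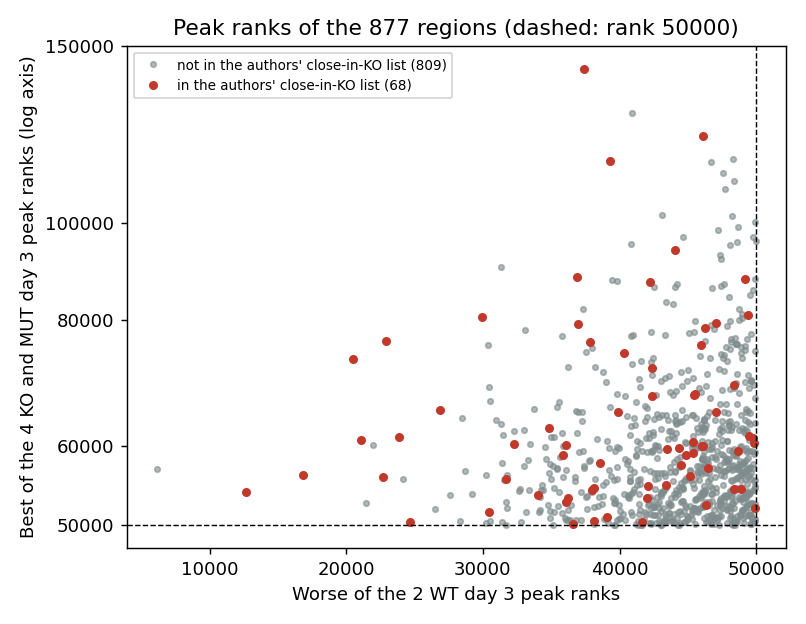
Worse of the 2 WT day 3 peak ranks (x axis) against the best of the 4 KO and MUT day 3 peak ranks (y axis, log scale) for each of the 877 regions, with the 68 regions of the authors' close-in-KO list in red. Most points crowd into the corner at rank 50000 (dashed lines): 702 lie beyond 40000 on the x axis and 586 lie below 60000 on the y axis.

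The rule also depended on interval edges at a few sites. At 27 regions (3.08%) the WT peak that made the region open had its highest summit outside it, and 60 regions (6.84%) had a kept KO or MUT peak within 300 bp. The region with the best WT rank, in exon sequence of the mitochondrial dehydrogenase gene Hsd17b10 (chrX:152002163-152002486), was both. Its own summit had fold enrichments of 3.34 and 3.93 in KO, 4.40 in the only MUT library that listed one, and 5.82 and 5.06 in WT on day 3, while its WT rank of 6120 was that of a neighbouring peak that reached into it.

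Of the 10 regions with the best WT ranks, 5 spanned an annotated transcription start site. Cyp2j6 encodes a cytochrome P450. At its start site (chr4:96553401-96553830) fold enrichment was 5.15 and 2.88 in KO, 5.10 and 5.49 in MUT, and 14.4 and 11.5 in WT on day 3. Both WT values lay above all KO and MUT values on day 2 as well, with 8.46 and 6.50 in KO, 6.90 and 7.63 in MUT, and 12.6 and 10.5 in WT, and the CHIR-treated WT lines stayed high at 10.1 and 12.6. Triobp, an actin-bundling gene, showed 4.82 and 3.19 in KO, 4.18 and 4.40 in MUT, and 8.84 and 8.36 in WT on day 3 (chr15:79002068-79002401), yet this region was open in all 10 other libraries. At the start site of the sorting nexin gene Snx8 (chr5:140360338-140360701) the values were 3.40 and 3.13 in KO, 3.53 and 4.08 in MUT, and 10.3 and 8.58 in WT on day 3. There KO cells with XAV had 7.00 and 7.60, and neither CHIR library listed a summit. Kcnip3, which encodes a neuronal calcium sensor, had 3.16 and 3.28 in KO, 3.89 and 4.02 in MUT, and 8.20 and 6.35 in WT on day 3 (chr2:127522006-127522356), with a kept peak within 300 bp in 2 of the KO and MUT libraries. These 4 start sites were in the authors' close-in-KO list, which came from the same libraries. In the peak lists MUT lay below WT there on day 3, but the rule had picked regions with kept WT and no kept MUT peaks. The study's own differential test, a measure unlike the peak ranks used here, reported only 4 regions that differed between MUT and WT on day 3.

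Away from promoters lay the region near Epha4, an ephrin receptor of axon guidance (chr1:77532215-77532560). Fold enrichment was 2.25 and 3.24 in KO, 5.44 and 4.27 in MUT, and 11.1 and 9.0 in WT on day 3. KO cells with XAV had 14.0 and 9.17, and WT cells with CHIR had 2.28 in the 1 library that listed a summit. Both XAV values lay above every untreated KO and MUT value on day 3. The rule had picked regions without a kept peak in those untreated libraries, and both KO values on day 2 lay above them too. On day 2 this region did not separate the genotypes, since its values were 9.57 and 5.57 in KO, 6.42 and 6.41 in MUT, and 7.46 and 10.2 in WT. The region that is nearest to Hpgds, a prostaglandin synthase gene, and spans the start of the transcript Gm44419 was strongest on day 2 and weak in both XAV-treated KO libraries. It had 15.8 and 13.3 in KO, 8.09 and 9.76 in MUT, and 15.2 and 17.1 in WT on day 2, and on day 3 4.56 and 4.59 in KO cells with XAV and 4.19 in the 1 untreated KO library with a summit, 4.42 and 3.05 in MUT, and 11.4 and 9.0 in WT. The intergenic regions at chr17:83972039-83972359 and chr1:194109184-194109520 had 9.57 and 8.44, and 9.36 and 8.52, in WT on day 3. Their highest KO or MUT values on that day were 5.16 and 5.18.

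**Figure D3:**
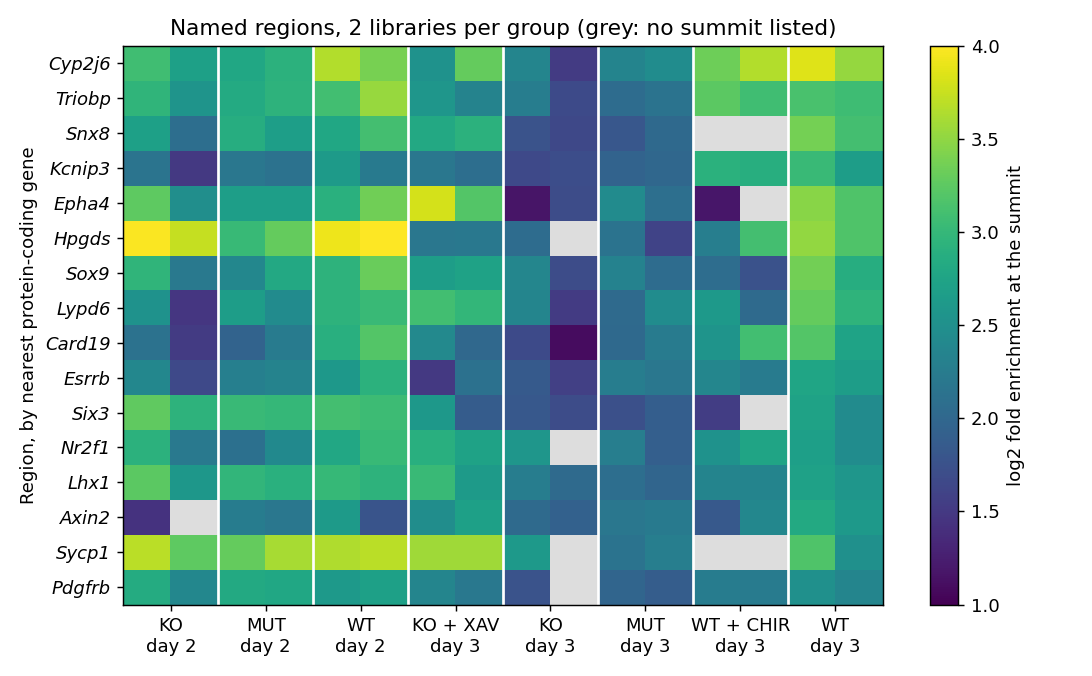
Log2 fold enrichment at the summit (colour) for 16 of the named regions, by nearest protein-coding gene (rows), in the 16 libraries (columns, 2 per group); grey cells have no summit listed. The Epha4 row is bright in KO + XAV and WT day 3 columns and dark in KO day 3 columns and, with CHIR, dark in 1 column and grey in the other, whereas Cyp2j6 stays bright with CHIR.

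To ask whether the regions also differed in libraries that did not choose them, openness was counted in the other 10. On day 2, 326 and 283 of the 877 were open in the KO libraries, 357 and 337 in the MUT libraries, and 440 and 436 in the WT libraries. The mean share was 34.7% ± 3.47 in KO, 39.6% ± 1.61 in MUT and 49.9% ± 0.322 in WT (SD, n = 2 each), so both WT libraries lay above all 4 KO and MUT libraries. Over all regions open in both WT day 3 libraries the means were 87.5% in KO, 89.6% in MUT and 89.7% in WT. The same closed rule applied to the day 2 libraries found 551 regions, 0.684% of all consensus regions, and 32 of these were among the 877 (3.65% of the 877 and 5.81% of the 551). On day 2 the regions were open in no library at 249 sites (28.4%) and in all 6 at 126 sites (14.4%). Of the 44516 regions open in WT on day 3, 3.33% were open in no day 2 library and 77.0% in all 6. A lower openness of the 877 than of the 44516 is built into the rule, which kept weak WT peaks that missed the threshold in 4 libraries of the same lines, so nothing is read from that gap.

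Fold enrichment on day 2 came from libraries that the rule did not use, although from the same lines. A summit was listed in all 6 day 2 libraries at 736 of the 877 regions. Both KO and both MUT values lay below both WT values at 168 of them (22.8%), against 9.42% of the regions open in both WT day 3 libraries, and above both WT values at 13 (1.77%), against 1.66%. The median log2 difference of KO and MUT minus WT was −0.19 (−0.23 for KO and −0.17 for MUT), against −0.08 over all regions open in both WT day 3 libraries. Regions closed in KO but open in both MUT libraries on day 3 shared part of this, with 15.5% below WT and a median of −0.14. Those closed in MUT but open in both KO libraries had 4.78% and −0.08. Divided by each library's median, a scaling chosen after the data were seen, the share was 18.3% against 6.10%. The comparison rested on WT day 2 replicate 1: without it the unscaled shares were 42.5% and 47.2%, and the scaled ones 30.0% and 20.6%. In the band of worse WT ranks from 40001 to 50000 the share was 18.5% (109 of the 588 of the 877 regions with all 6 summits), against 9.09% (666 of 7327) of the other regions open in WT.

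Regions that met the rule on both days were picked by the day 2 calls as well, so their day 2 and day 3 values are both a description. Near Card19, a gene of the CARD family (chr13:49224412-49224739), fold enrichment on day 2 was 4.38 and 2.88 in KO, 3.87 and 4.74 in MUT, and 7.41 and 9.16 in WT. On day 3 it was 3.20 and 2.14 in KO, 4.07 and 4.75 in MUT, and 9.21 and 6.67 in WT. The intronic region near Lypd6 had 5.79 and 2.78 in KO, 6.35 and 5.44 in MUT, and 7.68 and 8.16 in WT on day 2, and 8.51 and 7.95 in KO cells with XAV on day 3. Esrrb, a nuclear receptor gene of naive pluripotency, held an exonic region of this kind (chr12:86518777-86519084), with 5.24 and 3.17 in KO, 4.91 and 5.08 in MUT, and 6.04 and 7.61 in WT on day 2. Regions near Rsph10b and Mgat5, in an intron on chromosome 8 with no protein-coding start within 100 kb and near 1600014C23Rik also met the rule on both days. In these 4 the lowest WT fold enrichment on day 2 was 7.10 and the highest KO or MUT value was 6.68.

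Openness under the Wnt treatments is given beside that of the sets closed in 1 genotype. Those sets were open in 2 more day 3 libraries by their definition, and their WT peaks ranked higher (median worse WT rank 38970 for the set closed in KO only and 44088 for the set closed in MUT only, against 45377), so lower shares of the 877 follow from the rule in part. KO cells with XAV had 304 and 337 of them open, a mean of 36.5% ± 2.66 (SD, n = 2), where untreated KO cells on day 3 had none by the rule. The 1374 regions closed in KO but open in both MUT libraries were open at 65.9% in KO cells with XAV, and the 251 regions closed in MUT but open in both KO libraries at 63.9%. WT cells with CHIR had 173 and 174 of the 877 open (19.8% ± 0.081, SD, n = 2), against 23.7% for the regions closed in KO only and 55.2% for those closed in MUT only. Over all regions open in both WT day 3 libraries the shares were 90.8% with XAV and 78.7% with CHIR. Within the WT rank band of 40001 to 50000 34.8% of the 702 regions there were open with XAV and 16.5% with CHIR, against 73.1% and 51.7% of the other regions, which the rule again did not require to be closed in KO and MUT. Among the 53 regions with WT ranks up to 40000 and no KO or MUT peak up to rank 60000 the order of the treatments was the other way round, with 23.6% open with XAV and 32.1% with CHIR. At 150 regions (17.1%) both XAV libraries and neither CHIR library were open, the pattern seen near Epha4. It was found at 38.9% of the regions closed in KO only, 14.74% of those closed in MUT only and 10.2% of the 44516. The opposite held at 55 (6.27%). It held at 2.91% of the regions closed in KO only, 6.375% of those closed in MUT only and 1.33% of the 44516, so it was not particular to the 877. Neither XAV nor CHIR library was open at 322 (36.7%) of the 877. The same held at 19.07% of the regions closed in KO only, 8.367% of those closed in MUT only and 3.41% of the 44516. Of the 877, 163 (18.6%) were open in none of the 10 other libraries. That share was 10.04% for the set closed in KO only, 2.789% for the set closed in MUT only and 1.60% for the 44516. The CHIR libraries came from other WT lines than the untreated ones, so treatment and line cannot be told apart there.

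**Figure D4:**
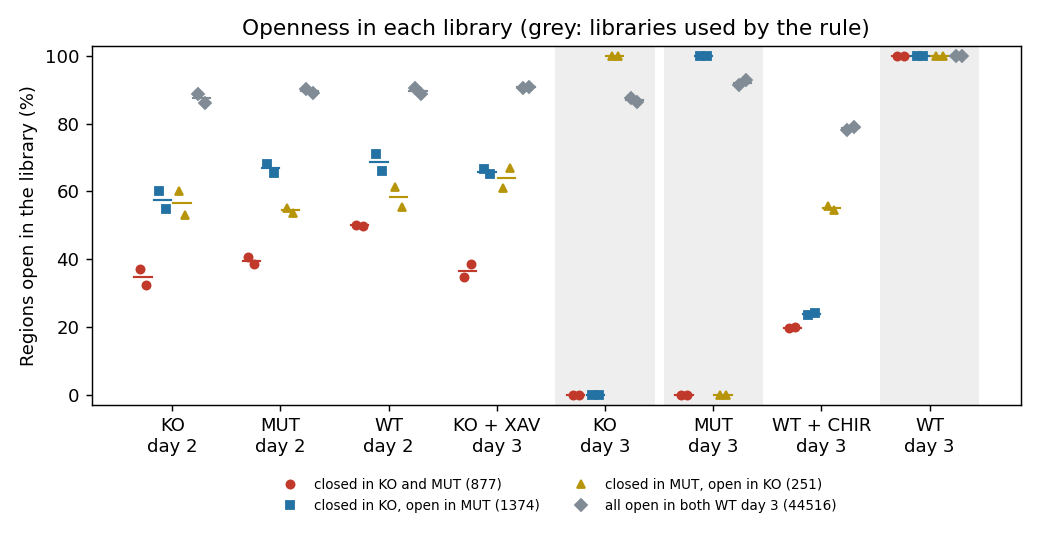
Share of regions open (y axis, %) in each library (points) with the group mean (bars), for the regions closed in KO and MUT, the 2 sets closed in 1 genotype and all regions open in both WT day 3 libraries. Grey bands mark the libraries the rule used, where 0% and 100% are fixed. In the other groups the red points run between 19.7% and 50.2%, below the other 3 sets, which were defined as open in more day 3 libraries or hold mostly such regions.

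By position, 634 of the 877 (72.3%) lay more than 3 kb from any annotated transcription start site, against 46.3% of all regions open in both WT libraries and 58.3% of all consensus regions. This was not particular to the 877, since the share was 73.9% of the regions closed in KO only and 68.5% of those closed in MUT only. An annotated start lay inside 78, while 107 were otherwise in exons, 353 in introns and 339 between genes. This position went with peak strength: within the WT rank band of 40001 to 50000, 74.5% of the 702 regions there and 66.2% of the others were distal. Median GC content was 53.3% in the 877, 51.3% in the regions closed in KO only and 56.3% in the 44516, and within the band it was 52.7% against 52.0%. Median CpG number per 300 bp was 5, against 3 in the regions closed in KO only and 8 in all regions open in both WT libraries. It was also 5 in the regions closed in MUT only and in all consensus regions. Their overlap with the authors' list of 920 regions that closed in KO on day 3 was 68, which is 7.75% of the 877 and 7.39% of the list, against 1.68% of the 44516 and 1.05% of all consensus regions. Within the band the share was 5.27%, against 0.797% of the other regions. The regions closed in KO only overlapped that list at 15.9%, and none of the 877 overlapped the open-in-KO list. That list was made from the same libraries and is no independent measure.

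Sequence matches were counted in 300 bp around each region's centre, on both strands. The TEAD letters GGAATG were present in 26.1% of the 877, 35.9% of the regions closed in KO only, 14.7% of those closed in MUT only and 18.4% of all consensus regions. Within the WT rank band they were present in 25.6% of the 702 regions there and 20.8% of the others. The short SOX core ACAAAG was held by 26.7%, against 22.1% of all consensus regions, and by 26.9% against 23.2% in the band. The OCT octamer ATGCAAAT was held by 4.33%, against 2.75%, and the E-box CAGCTG by 29.1%, against 24.3%. In the band the octamer stood at 4.56% against 3.07% and the E-box at 27.2% against 25.1%. Regions closed in KO only held the SOX core at 32.4%, the octamer at 4.22% and the E-box at 25.6%. The SOX and octamer shares were thus not particular to the 877. The KLF/SP letters GGGCGGG, typical of CpG-rich promoters, were held by 11.4%, against 18.5%, but this difference was not seen in the band, with 10.7% against 11.3%. The AP-1 letters TGANTCA stood at 13.5%, against 11.8%, but in the band the order was reversed, with 13.1% against 14.5%. CTCF matches stood at 2.05%, against 2.49%. The TCF/LEF letters TCAAAGG were held by 4.79%, against 6.50%, but the regions open in both WT day 3 libraries held them at 4.965%, close to the 877. Regions closed in KO only stood at 6.62% and those closed in MUT only at 5.18%. None of these motifs contains another. Matches describe the letters in these windows and not binding.

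**Figure D5:**
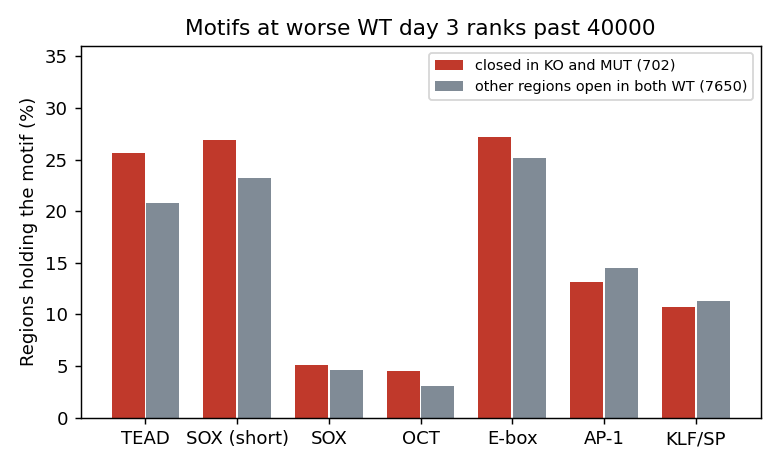
Share of regions holding each motif (y axis, %, from 0) within WT day 3 ranks 40001 to 50000, for 702 regions closed in KO and MUT (red) and 7650 other regions open in both WT libraries (grey). TEAD letters stand at 25.6% against 20.8%, and KLF/SP letters at 10.7% against 11.3%.

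A protein-coding start lay within 100 kb of 745 of the regions, near 720 genes, or 4.14% of the 17408 genes with a consensus region. No gene had more than 2. Across the 17 gene lists the counts were small. At 4.14% of genes a short list can hold none, so nothing is read from a list without a region. Shares of each list's regions lay on both sides of the 1.09% over all consensus regions. They were, for example, 0.717% for the neuroectoderm and anterior neural list and 2.37% for the neural crest and surface ectoderm list. Of 35 neuroectoderm and anterior neural genes, 2 had a region. Near Six3, a forebrain homeobox gene, fold enrichment was 3.54 and 3.24 in KO, 3.32 and 3.74 in MUT, and 6.61 and 5.45 in WT on day 3, but 9.62 and 7.67 in KO, 8.21 and 8.01 in MUT, and 8.61 and 8.31 in WT on day 2. On day 2 the KO values at Six3 lay on either side of the WT values and the MUT values just below them, whereas on day 3 all KO and MUT values lay below WT. Near Nr2f1, a nuclear receptor gene of the developing brain, the values were 5.97 in the 1 KO library with a summit, 4.85 and 3.76 in MUT, and 6.46 and 5.52 in WT on day 3, so that KO and WT overlapped. Of 17 neural crest and surface ectoderm genes, 3 had regions: Sox9, a crest transcription factor gene, Pax7, a crest and muscle homeobox gene with 2 regions, and Dlx5, a homeobox gene of the face and limb. Upstream of Sox9 the values were 5.21 and 3.24 in KO, 5.03 and 4.17 in MUT, and 10.3 and 7.28 in WT on day 3, while at the better-ranked Pax7 region MUT replicate 2 (4.87) all but equalled WT replicate 2 (4.90).

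Of 20 primitive streak genes only Lhx1, a homeobox gene of the node and head organiser, had a region (chr11:84562727-84563321). It had 4.85 and 4.09 in KO, 4.24 and 3.95 in MUT, and 6.60 and 5.97 in WT on day 3, and 8.16 and 6.19 in KO cells with XAV. None of 14 endoderm genes and none of 17 Nodal and TGF-beta genes had one. Of 21 mesoderm genes, Hand2, a heart and limb factor gene, and Pdgfrb, a PDGF receptor gene, did. At the Pdgfrb start site (chr18:61044959-61045500) the values were 3.42 in the 1 KO library with a summit, 3.93 and 3.70 in MUT, and 5.69 and 5.17 in WT on day 3. Of 29 Wnt genes, Axin2, a feedback inhibitor that Wnt signalling induces, and Tcf7, which encodes a TCF factor, each had 1. Near Axin2 the values were 4.11 and 3.81 in KO, 4.56 and 4.66 in MUT, and 7.08 and 6.16 in WT on day 3, and its best KO rank of 50231 lay just past the threshold. Among 14 genes of DNA methylation, only Dnmt3a, which encodes a de novo methyltransferase and is also in the list of 21 formative pluripotency genes, had regions. At the intronic one (chr12:3843338-3843667) the day 3 values overlapped, with 3.38 and 3.80 in KO, 3.82 and 5.15 in MUT, and 5.98 and 4.28 in WT. Esrrb was the only 1 of 18 naive pluripotency genes.

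Of 16 germline genes with a consensus region, only Sycp1, a gene of the synaptonemal complex, had an intronic region without a CpG. Its values were 6.12 in the 1 KO library with a summit, 4.42 and 4.88 in MUT, and 9.0 and 5.67 in WT on day 3, and 11.9 and 11.9 in KO cells with XAV. It was strong in every day 2 library, from 9.59 to 12.9, and no summit was listed with CHIR. The imprinted Gnas locus held a start-site region with 27 CpG that was weak everywhere, at most 3.69 in WT. Of 33 axon guidance and adhesion genes 4 had a region, those named by rank being Epha4, Slit3 and Tenm4. The 4 regions were 0.835% of the list's 479 regions, below the 1.09% over all consensus regions. The intronic Slit3 region had 3.18 and 4.26 in KO, 5.26 and 4.89 in MUT, and 6.45 and 7.45 in WT on day 3. On day 2 the Tenm4 region had a summit only in WT replicate 1, at 2.2, and none was listed with XAV or CHIR. On day 3 it had 3.54 in the 1 untreated KO library with a summit and at most 5.18 in MUT, against 6.92 and 5.67 in WT. No housekeeping gene of 15 and no trophoblast gene of 12 had a region.

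Markers of other cells were read beside these counts. The fibroblast and feeder list had regions near 3 of its 13 genes with a consensus region (Pdgfrb, Col3a1 and Postn), 3 of its 73 regions (4.11%) against 1.09% of all. Of those 73 regions, 39 and 40 were open in KO, 42 and 46 in MUT, and 45 and 49 in WT on day 3. The rule used these libraries and fixed the calls of the 3 regions named, so part of this difference is built in. The summed fold enrichment of the open ones ran from 238 to 311 in KO, 316 to 334 in MUT and 334 to 364 in WT. In the trophoblast list, where no gene had such a region, the sums ran from 222 to 311 in KO, 274 to 279 in MUT and 242 to 286 in WT. Start-site regions of Col1a1, Col1a2, Thy1, Fbn1 and Sparc were open in all 16 libraries, and Col3a1 and Postn had no start-site region. The start site of Pdgfrb was open in 10 libraries and those of Twist2 in 13. On day 3 Twist2 went the other way, open in both untreated KO and both MUT libraries but not in WT replicate 1. The Col3a1 and Postn regions had 6.55 and 5.67, and 6.58 and 6.33, in WT on day 3, and were open in none of the 10 other libraries. The part of feeder cells in the result was not tested. Of 13 extraembryonic endoderm genes, Col4a1, a basement membrane collagen gene, had 1 region, which was in the close-in-KO list and met the rule on day 2.

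Across the series, the lists held 161449 to 276451 peaks, and −log10 p at rank 50000 ran from 6.84 in KO day 3 replicate 2 to 21.8 in KO day 2 replicate 1. Read depth was not given in the peak lists, and KO day 3 replicate 2, with the lowest cutoff, listed a peak at 649 of the 877 regions, against 823 in KO replicate 1, and 832 and 869 in MUT. An intronic Tet1 region (chr10:62884128-62884462) was open in 0 of the 6 KO-line libraries and in all 10 others. Start-site regions of Sox2, Otx2, Zic2, Pax6 and Sox1 were open in all 16 libraries, and those of Pou5f1 in 15.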

How the data were processed

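ATAC-seq peak lists of 16 libraries (8 groups of 2) were used. According to the study's methods, the authors ran the ENCODE ATAC-seq pipeline: trimming, alignment, deduplication and peak calling. The submitters' processing notes name mm10, and 1 peak list was deposited per library. No source used here gives versions of the aligner or peak caller. File names mark the second replicate of each day 2 group as merged, which was not resolved further. The deposited columns were a fold enrichment at each summit (a ratio over local background, by the authors) and −log10 p and −log10 q of each peak, as deposited, with a lowest −log10 p of 2. The authors' close-in-KO and open-in-KO lists, made with DiffBind 3.0.15, were deposited as coordinates with a region number and served for overlap only.

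Intervals were reduced to 1 entry per start and end, ranked by −log10 p, and merged with Python 3.11.15, numpy 2.4.6 and pandas 2.3.3. Ranking each library separately makes the number of kept peaks equal whatever its depth, which the lists do not give, but a region near rank 50000 can change its call with a small change in signal. Fold enrichment was read at the strongest listed summit inside a region and was missing where none was listed. Log2 differences were taken without a pseudocount. Positions used GENCODE M21, and sequence the RefSeq GRCm38.p6 FASTA, whose chromosome lengths match mm10. Code was tested on simulated peak lists. The 877 regions, gene lists, motifs and comparisons were chosen with earlier results of these data known. No region-wise test was made, and shares are given as descriptions.

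Named regions were the 10 with the best worse WT rank, list genes (up to 3 per list), up to 6 of the close-in-KO list, up to 6 that met the rule on day 2, and those nearest the threshold; the rule for genes with the most regions (at most 12) named none, since 25 genes had 2. A region that this rule names is not reported here. Alternatives were the number and ranking of peaks, the overlap, the libraries and the windows.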

Additional observations from a re-analysis of the deposited data

Results flagged for a closer look

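The region near Podxl (chr6:31637672-31638001) went against its day 3 direction on day 2. Fold enrichment on day 2 was 4.74 and 4.92 in KO, 4.90 and 4.84 in MUT, and 3.92 and 3.83 in WT, a log2 difference of 0.32 for KO and MUT minus WT. On day 3 it was 4.15 and 3.53 in KO, 3.64 and 2.95 in MUT, and 5.15 and 4.33 in WT, a log2 difference of -0.42. It was the only 1 of the 877 regions (0.114%) open in all 4 KO and MUT libraries and in neither WT library on day 2. Of the 44516 regions open in both WT day 3 libraries, 0.254% had these day 2 calls. The Podxl region was picked by its calls on both days, so its values are a description. The difference between the days was not tested. Groups of 2 libraries were too small to look for outlying samples.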

How the results depend on the processing

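Keeping 30000 peaks gave 445 regions near 388 genes, of which 5.84% met the rule on day 2, 64.9% were distal, and 37.6% were open in MUT and 52.0% in WT on day 2 and 23.6% with CHIR. Ranking by fold enrichment gave 915 regions, 77.5% distal, 51.0% open in WT on day 2 and 20.7% with CHIR. Keeping every peak with −log10 q of at least 2 gave 1929 regions near 1472 genes: 1.61% met the rule on day 2, 18.0% had KO and MUT day 2 values below WT, and the open shares were 46.9% in KO, 49.4% in MUT and 60.1% in WT on day 2, 43.5% with XAV and 22.4% with CHIR. Of the 877 regions, 18 (2.05%) overlapped the set from 30000 peaks, 348 (39.7%) the set ranked by fold enrichment and 2 (0.228%) the set from every peak. Requiring 50% coverage moved only the CHIR share, to 19.7%. A distal limit of 1 kb gave 82.7%.

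Alternatives added after the data were seen gave the following. Calling a region open by a summit of the top 50000 sub-peaks gave 709 regions, 149 of them among the 877 (17%), with 64.2% distal, 53.4% open in WT on day 2 and 23.5% with CHIR. Without regions beside a kept KO or MUT peak, the CHIR share was 18.8%. Requiring WT ranks up to 40000 and no KO or MUT peak up to 60000 left 53 regions near 45 genes: 11.3% met the rule on day 2, 58.5% were distal, 45% had KO and MUT day 2 values below WT with a median log2 difference of -0.42, and the open shares were 25.5% in KO, 30.2% in MUT and 59.4% in WT on day 2, 23.6% with XAV and 32.1% with CHIR. Scaling fold enrichment gave 18.3% below WT.

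Leaving out 1 day 3 library gave 1087 to 2439 regions. The open shares then ran from 32.2% to 42.4% in KO, 35.3% to 50.1% in MUT and 42.4% to 59.0% in WT on day 2, from 31.6% to 47.3% with XAV and from 19% to 23.7% with CHIR. Over 12 settings, each without 1 day 3 or 1 day 2 library, the share below WT on day 2 ran from 17% to 42.5%. The median log2 difference ran from -0.26 to -0.12. The 42.5% came without WT day 2 replicate 1, where the regions open in both WT day 3 libraries had 47.2%. No paired analysis was made. The genotypes share no line, and each untreated line was profiled on day 2 and day 3, but the day 3 calls are fixed by the rule. KO1 and KO15 were profiled with and without XAV, but their untreated day 3 calls are fixed by the rule. Depth is unknown, and the cause of these moves was not tested.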

Other observations

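The regions were spread over the genome. Chromosome X held 27 (1.52% of its consensus regions), chromosome 16 the lowest autosomal share (0.765%) and chromosome Y none, and 8 lay within 10 kb of another. The 25 genes with 2 regions, named here after their values were seen, included Ebf3 and Ntrk3, a neurogenic transcription factor gene and a neurotrophin receptor gene, Gabbr2, a GABA receptor gene, and Stat4, a cytokine signalling gene. Only Dnmt3a and Pax7 of the 25 were in the gene lists.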
